A study of Mus musculus with 2 samples.

Results

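Promoters of autosomal protein-coding genes were chosen here by their DNA methylation in XO embryonic stem cells. A promoter was taken as 1 kb either side of the gene start of GENCODE M21 on GRCm38, and it entered the set when it held at least 10 listed CpG cytosines with a mean methylation of 50% or more in XO cells. Of 12046 autosomal coding promoters with at least 10 listed cytosines, 123 met the rule (1.02%). The XO values chose the set, so XO levels and every difference from XO are given as a description.

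The cells were Xmas mESCs, female mouse embryonic stem cells of a C57/Bl6 background with a GFP and an mCherry reporter at Hprt on different X chromosomes. All cells were grown by the modified 2i/LIF method and then sorted by FACS, so that cells with both reporters (XX) were separated from cells that had lost an X chromosome (XO). DNA methylation was measured by reduced representation bisulfite sequencing (RRBS), which reads mostly the CpG-rich fragments next to CCGG sites, as the percentage of reads at a cytosine that stayed unconverted (%mCpG). There was 1 library per karyotype with no age or treatment difference stated, so no difference below has a replicate error and none was tested. The labels give 7 passages for both libraries and the study's text gives another number. The XO cells arose from the female line itself, and the labels do not say which X chromosome they had lost. Read depth is unknown, because the table holds percentages only. The identity of the cells was not checked from RNA here. The promoters of 12 genes of naive pluripotency had a median XO level of 9.45%, and 0 of them were in the set.

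Most mammalian promoters lie in CpG islands, stretches where CpG dinucleotides have been kept at high density and are usually free of methylation. Promoters with few CpGs follow the surrounding genome more closely and are often methylated where the gene is not in use. Mouse embryonic stem cells with 2 active X chromosomes are known for low methylation across the genome, and 2i medium lowers it further. Methylation is copied from strand to strand after replication, so the cytosines of a CpG on opposite strands are usually alike in cells that maintain it.

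The sequences below show 5 of the promoters on which the results turn, read from the GRCm38 reference 5′ to 3′ on the strand of the gene, with the CpGs that the table lists in capitals. 6430628N08Rik and Exoc3, a subunit of the exocyst, stand for promoters with a high XO level and show the 300 bases before their starts. Tmem123 shows the same 300 bases of a promoter whose mean did not fall in XX cells. Acp4, a testis acid phosphatase, kept the least methylation in XX cells, and Col7a1, the collagen of anchoring fibrils, kept all of it. For these last genes the 200 bases with the most listed CpGs outside untranslated sequence are shown, a choice made after the values were seen.
6430628N08Rik, chr4:115890365-115890664, + strand: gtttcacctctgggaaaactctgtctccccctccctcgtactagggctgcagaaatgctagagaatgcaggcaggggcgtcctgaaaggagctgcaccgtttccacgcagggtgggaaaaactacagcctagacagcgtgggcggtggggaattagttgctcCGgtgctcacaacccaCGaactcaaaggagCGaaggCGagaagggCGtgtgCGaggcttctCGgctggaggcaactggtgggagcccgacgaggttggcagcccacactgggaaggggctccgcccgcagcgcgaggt
Exoc3, chr13:74208733-74209032, - strand: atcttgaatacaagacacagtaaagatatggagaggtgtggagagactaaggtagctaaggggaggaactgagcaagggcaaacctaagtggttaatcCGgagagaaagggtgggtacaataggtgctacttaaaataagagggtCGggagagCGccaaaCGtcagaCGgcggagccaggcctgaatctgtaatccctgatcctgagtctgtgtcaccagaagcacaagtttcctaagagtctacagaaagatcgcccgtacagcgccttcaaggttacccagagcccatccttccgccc
Tmem123, chr9:7763741-7764040, + strand: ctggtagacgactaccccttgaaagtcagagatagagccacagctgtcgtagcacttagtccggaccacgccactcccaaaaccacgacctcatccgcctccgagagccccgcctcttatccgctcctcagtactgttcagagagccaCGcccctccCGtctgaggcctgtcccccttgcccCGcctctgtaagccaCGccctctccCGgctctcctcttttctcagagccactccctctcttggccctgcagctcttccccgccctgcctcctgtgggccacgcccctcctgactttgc
Acp4, chr7:44256994-44257193, - strand: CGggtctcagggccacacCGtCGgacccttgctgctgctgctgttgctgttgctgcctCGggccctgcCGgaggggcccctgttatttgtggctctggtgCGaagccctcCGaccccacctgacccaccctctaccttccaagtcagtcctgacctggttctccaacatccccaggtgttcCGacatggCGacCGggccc
Col7a1, chr9:108953745-108953944, + strand: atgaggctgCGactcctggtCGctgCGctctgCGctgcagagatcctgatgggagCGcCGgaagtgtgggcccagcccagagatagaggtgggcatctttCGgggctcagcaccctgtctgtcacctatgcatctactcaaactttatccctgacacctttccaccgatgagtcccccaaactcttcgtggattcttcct

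The 7 listed CpGs before the start of 6430628N08Rik had a mean of 90.5% in XO cells and 64.4% in XX cells. The 5 before the start of Exoc3 had means of 75% and 45.6%. In Tmem123 the 5 listed CpGs before the start were at 22.8% in XO and 14.1% in XX cells, whereas the mean of its whole window was 63.6% and 65.8%, so the methylation of that window lay mainly in the gene and not before it. The Acp4 stretch, 185 to 384 bases into the gene and 61% coding exon, fell from 55.6% in XO to 12.6% in XX cells over its 10 listed CpGs. In contrast, the Col7a1 stretch (44% coding exon) had 58.4% and 55.8% over 7 CpGs.

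The 123 promoters had a median XO level of 59.4% (interquartile range 53.9 to 66.6, highest 91.8). In XX cells the same promoters had a median of 39.2% (interquartile range 32.4 to 48.3, lowest 12.6, highest 74.0). The median difference, XX minus XO, was -21.1 percentage points. XX cells kept a median of 66.3% of the XO level (interquartile range 53.7 to 81.3), taking the share kept as 100 times the XX mean divided by the XO mean. At least 20 points were lost at 67 of the 123 promoters, against 160 of all 12046 tested (1.33%). A promoter with little methylation cannot lose 20 points, and the XO level that chose the set is part of the difference, so nothing is read from this contrast. None of the 123 was at least 20 points higher in XX cells, against 19 of 12046 (0.158%). A set of this size can hold none at such a share, so nothing is read from that either. As a description, the set was lower as a whole in XX cells, which its choice by XO values favours, but was still methylated there. Only 6 promoters had an XX mean under 20% and 28 had one of 50% or more. Among all tested promoters, 36 reached 50% in XX cells and the median levels were 8.21% in XO and 7.00% in XX.

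**Figure D1:**
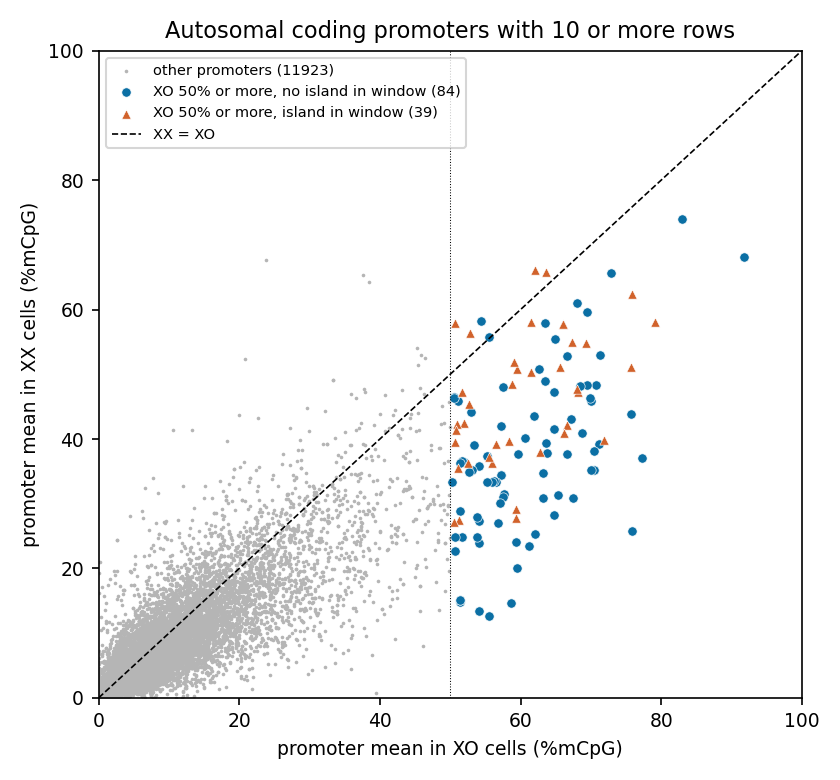
Promoter mean methylation in XX cells (y axis, %mCpG) against XO cells (x axis, %mCpG), 1 point per autosomal coding promoter with 10 or more listed cytosines and 1 library per karyotype. Grey points are the other 11923 promoters, and coloured points right of the dotted line are the 123 chosen ones, 39 with a CpG island in the window (triangles) and 84 without (circles). Most coloured points lie below the dashed line of equal methylation, and 6 lie on or above it.

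The promoters next to the threshold show how fine the choice was. Just outside it were Acy3 with an XO mean of 49.8%, and Kcne4 and Paxx, both with 49.9%. Just inside it were AC115631.1 with 50.2%, and Slbp, the histone stem-loop binding protein, and Atp6v0e, a subunit of the vacuolar proton pump, both with 50.5%. The share kept changed little across the XO levels around this threshold. Its median was 70.3% for 344 promoters with an XO mean of 30 to 40%, 63.4% for 141 promoters at 40 to 50%, 66.2% for 65 at 50 to 60%, 69.9% for 40 at 60 to 70% and 61.7% for the 18 above that. Within the 123 the correlation of the share kept with the XO level was small (r = 0.033, Spearman's rho = 0.012, n = 123 promoters that share the same libraries). The XO mean is also the divisor of the share kept, and the rule had narrowed its range. These values therefore cannot show that a relation is absent.

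The same rule was applied elsewhere as a comparison. Of 10710 windows of about 2 kb whose centres lay more than 5 kb from any annotated transcript start, 37.2% had an XO mean of 50% or more, and these 3989 windows kept a median of 61.5% (interquartile range 51.6 to 71.7). The median share kept by the methylated promoters lay within that interquartile range. For 55 of the 123 genes the rest of the gene body had at least 10 listed cytosines, and these bodies had a median of 38.9% in XO and 25.4% in XX cells, with 66.6% kept. The gene body was more methylated than the promoter in 10 of those 55 genes, whereas it was so in 7058 of the 7653 genes tested in the same way, an ordering that the choice of methylated promoters favours. Among X-linked promoters, 4 of 287 met the rule (1.39%). They kept a median of 33.6%, and each of the 4 had lost at least 20 points in XX cells.

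Pooled over the set, listed cytosines were methylated on both sides of the gene start, though some promoters, such as Aplnr and Vmn2r69, were read on a single side only. Over the 123 promoters, the mean XO level of listed cytosines was 57.05% in the 250 bases before the start and 61.3% in the 250 bases after it, and was still 61.4% from 750 to 1000 bases into the gene. Outside the window it was 32.9% from 2 to 1 kb upstream and 38.8% from 1 to 2 kb downstream. XX cells followed the same course at a lower level, with 38.5% and 42.5% in the 250 bases before and after the start. Since the rule asked for high values within 1 kb, the level inside the window and the step at its edge are in part set by the choice. All tested promoters had the opposite shape, with an XO minimum of 7.63% in the first 250 bases of the gene.

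**Figure D2:**
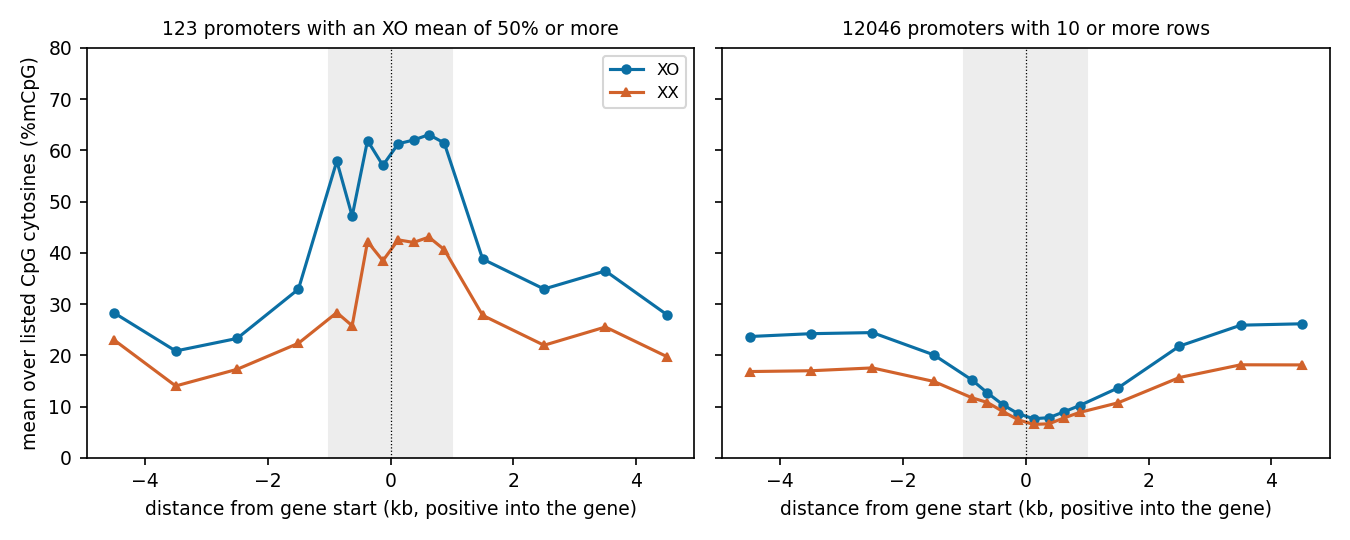
Mean methylation of listed CpG cytosines (y axis, %mCpG) by distance from the gene start (x axis, kb, positive into the gene), for the 123 methylated promoters (left) and all 12046 tested (right). Circles are XO cells and triangles XX cells, 1 library each, and the grey band is the window that the rule used. The chosen promoters stay near 60% in XO cells across most of the band and drop outside it, whereas all promoters together dip to 7.63% at the start.

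Most of the methylated promoters were not CpG island promoters. A CpG island, called on the repeat-masked reference, touched the window of 39 of the 123 (31.7%), compared with 89.4% of all tested promoters. It lay at the gene start or close beside it in 32 (26.0%), compared with 78.3%. Their ratio of observed to expected CpGs had a median of 0.369, and that of all tested promoters was 0.636. Their windows held a median of 45 CpGs, of which 28.9% were listed, against 93 CpGs and 44.4%. These promoters were hence measured less completely than most, with a median of 13 listed cytosines (range 10 to 46) where all tested promoters had 57. There were fewer than 15 in 79 of them. No listed cytosine lay within 250 bases of the start in 32 (26.0%, against 8.53% of all tested), and their means describe the flanks only. RRBS cuts at CCGG, and at least 1 CCGG stood in the 300 bases before the start of 58.5% of the set and 79.4% of all tested promoters (the site reads alike on both strands). Of the listed cytosines, 55.3% lay in exons of the gene itself, 22.5% in its introns and 16.99% upstream, with the rest in other genes.

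Promoters with an island kept more of their methylation than those without one, at the same XO level. The 39 with an island had a median of 59.4% in XO and 47.2% in XX cells, and kept 77.9% (interquartile range 67.4 to 85.7). The 84 without one had the same XO median, 59.4%, but 36.4% in XX cells, and kept 60.3% (interquartile range 48.9 to 71.3). At least 20 points were lost at 12 of the 39 and at 55 of the 84. The split was also seen in promoters outside the set, with 77.0% kept by 58 island promoters and 61.0% by 83 others at an XO mean of 40 to 50%, and 74.5% and 66.1% at 30 to 40%. It was slight at 10 to 20%, with 78.8% and 77.3%. The medians were also apart when promoters were chosen on the cytosines of 1 strand and read on those of the other. With the choice made on the forward strand and the reverse strand read, 33 island promoters kept 87.5% and 67 others 68.5%, and in the opposite direction 57 kept 83.6% and 68 kept 61.6%. On the strand read the groups were no longer at the same XO level, with medians of 39.5% for island promoters and 53.0% for the others in the first direction and 30.8% and 51.4% in the second. In the first direction the XX median of the island promoters, 41.4%, was above their XO median, and XX cells were lower in 18 of 33 island promoters and 56 of 67 others. In the second they were lower in 37 of 57 and 65 of 68. The island promoters were measured less evenly. Their strands differed more (below), and 20.9% of their CpGs were listed, against 31.1% without an island. What part this had in the split was not tested.

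**Figure D3:**
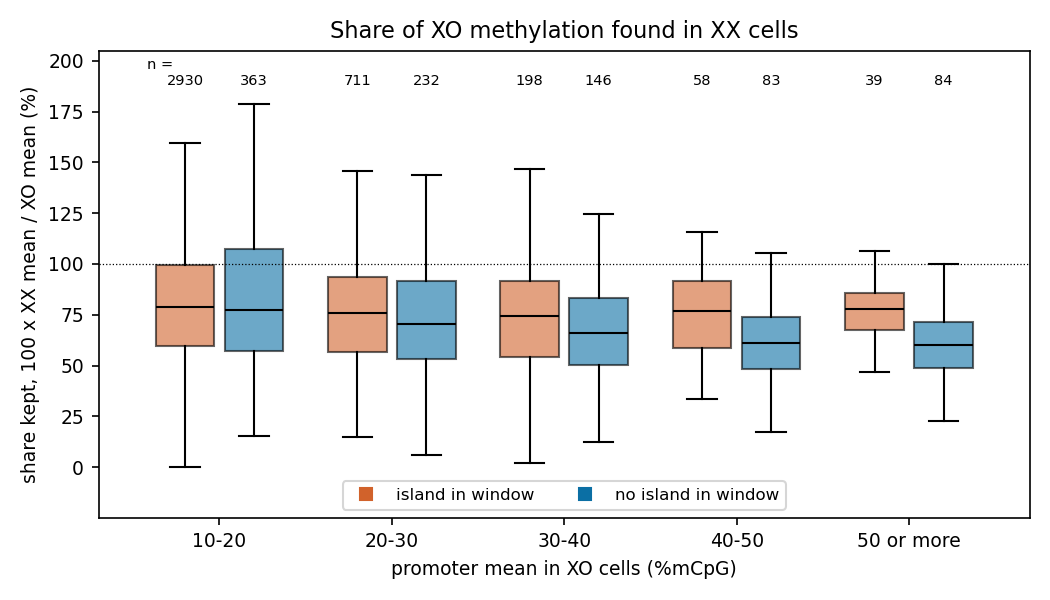
Share of the XO methylation found in XX cells (y axis, %) for autosomal coding promoters grouped by their XO mean (x axis, %mCpG), with and without a CpG island in the window. Boxes give the median and quartiles over promoters, whiskers reach to 1.5 times the box length with points beyond them not drawn, and numbers of promoters stand above. At an XO mean of 50% or more the island promoters sit at a median of 77.9% and the others at 60.3%, while the medians lie close together at 10 to 20%.

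By name, 18 of the 123 were predicted or clone-named genes (18 of the 492 tested in that list, 3.66%), and 107 had a transcript of the consensus coding set (87.0%, against 97.1% of all tested). These and the other lists are read against the 1.02% of all tested promoters that met the rule, as counts with no test. Most lists were made from patterns in gene names and the others by hand, so they need not hold every gene of their kind. Cdsn, an epidermal gene, and the transcription factor Mecom were in the set but in no list. Chemosensory receptors had 3 of 6 tested, namely the sweet and umami taste receptor subunit Tas1r3, the olfactory receptor Olfr284 and the vomeronasal receptor Vmn2r69. Tas1r3 had 66.6% in XO and 37.7% in XX cells, and Olfr284 had 63.6% and 39.4%. Keratins and epidermal genes had 3 of 18, the keratins Krt83, Krt26 and Krt35. Their XX levels were 51.1, 35.8 and 39.1%, against 65.7, 54.1 and 53.4% in XO cells. Enzymes and carriers of xenobiotics and lipids had 5 of 79, namely the alcohol dehydrogenase Adh6b, the apolipoproteins Apoa4 and Apoc2, the phospholipase-family gene Pla2g12b and the retinoic acid hydroxylase Cyp26c1, with a median share kept of 68.0%. Adh6b had 71.1% in XO and 39.2% in XX cells. G protein-coupled receptors named as such had 4 of 100 (Gpr157, Gpr37l1, Gpr179 and Gpr182), with a median of 67.7% in XO and 43.7% in XX cells. Cytoskeletal and motor genes had 4 of 116, the actin-like Actbl2, the muscle proteins Myl1 and Tnni2, and the neuronal kinesin Kif5a.

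Genes named for the testis had 3 of 82 (Spata46, Tssk1 and Adad2), and germline genes known to be silenced by promoter methylation had 2 of 65. Those were Brdt, the testis bromodomain protein, with 66.1% in XO and 40.9% in XX cells, and Adad2, a testis adenosine deaminase-domain protein, with 50.7% and 39.5%. The 10 listed cytosines of Brdt lay 507 to 866 bases into the gene. Adad2 had 62.6% in XO and 28.1% in XX cells on the forward strand, but 41.5% and 48.4% on the reverse strand. The median of the whole germline list was 15.01% in XO cells. Imprinted genes had 1 of 42, Slc22a2, an organic cation transporter of the Igf2r cluster, with 75.6% in XO and 43.9% in XX cells. Several large lists were below the 1.02%. Zinc finger genes had 2 of 257 (Zfp82 and Zfp691), developmental transcription factors 1 of 208 (Sox15), ribosomal and proteasomal genes 1 of 186 (Psmb6), transporters 3 of 313, and genes of the Tmem and Ccdc names 4 of 534. Ion channels had 2 of 149, immune receptors and cytokines 2 of 97, histones 1 of 28 and proteases with their inhibitors 1 of 73. None of the 8 listed trophoblast genes, 16 listed hematopoietic genes or 28 listed protocadherins was in the set. Lists this short can hold none at a share of 1.02%, so nothing is read from these zeros. The hematopoietic list did not hold the lymphoid gene Rag1, which was in the set with 57.2% in XO and 34.5% in XX cells. The remaining 65 promoters were in none of the lists.

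Among the promoters with the highest XO levels, Gm49394 was at 91.8% in XO and 68.1% in XX cells. Its 17 listed cytosines, which lay 150 to 473 bases into the gene, ran from 70 to 100% in XO and from 36 to 100% in XX cells, and its window overlapped Igf2os. 6430628N08Rik had 79.2% and 58.0%, and all 12 of its cytosines were lower in XX cells. The apelin receptor Aplnr had 77.3% and 37.1%, and all 13 of its cytosines were lower in XX cells. They lay 672 to 842 bases into the gene, in 2 runs with gaps of at most 100 bases on a strand. Neighbouring cytosines can be read on the same fragments, so counts of cytosines within a promoter, here and below, are not independent of each other. Exoc3 had 75.6% in XO and 51.1% in XX cells over 15 cytosines, all on the reverse strand. The orphan receptor Gpr157 had 71.8% and 39.8% over 17 cytosines. The others of the 10 highest were Gm10800, 4933415F23Rik, Gm10378, Slc22a2 and Gm11032, between 72.9 and 83.0% in XO cells.

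Acp4 kept the smallest share in XX cells. It was at 55.6% in XO and 12.6% in XX cells (22.8% kept), and each of its 14 listed cytosines was lower in XX cells, where the highest was at 29.7%. Csmd3, a large transmembrane protein of nervous tissue, had 54.2% and 13.4% (24.7% kept), with 13 of 13 cytosines lower. Apmap, an adipocyte membrane protein, had 58.7% and 14.7% (25.1% kept), and 3 of its 16 cytosines were equal in both libraries. The tRNA-modifying enzyme Ctu1 had 51.4% and 14.8% (28.9% kept). The phosphatidylserine-binding protein Anxa5 and 1810062G17Rik start 43 bases apart on opposite strands and share their 10 listed cytosines, which were at 51.3% in XO and 15.1% in XX cells (29.5% kept). The RING-finger gene Rnf223 had 59.5% and 20.05% (33.7% kept), with 17 of 17 cytosines lower. Gm10378, Spata46 and 1110002E22Rik completed the lowest 10, with 34.03, 38.4 and 40.6% kept. None of these 10 had an island in the window.

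At 6 promoters the XX mean was as high as the XO mean or higher. The kinesin Kif5a had 50.6% in XO and 57.9% in XX cells (114.3% kept). Its 13 listed cytosines formed a single run of 64 bases on the reverse strand, and 11 of them were higher in XX cells. Rrp9, a protein of the U3 ribonucleoprotein, had 54.4% and 58.3%, with 6 cytosines higher and 6 lower in XX cells, and its difference was -2.19 points within 500 bp of the start. Dnajc24, of diphthamide synthesis, had 52.9% and 56.4%, and the difference of its medians over cytosines was -3.81 points. The nucleoporin Nup155 had 62.1% and 66.1%, but within 500 bp of its start XX cells were the lower ones, with a difference of -8.23 points. Tmem123 had 63.6% and 65.8% over 23 cytosines, with 8 higher and 12 lower, and Col7a1 had 55.6% and 55.7%, with 11 of 15 higher. The excess of XX over XO means was at most 7.23 points, less than the 10.7 points by which the difference itself typically varied between strands of the same promoter (median over 75 promoters). Of the 6, only Tmem123 and Col7a1 were among those 75, so this spread was not measured at the others. With medians over cytosines the excess was larger at Tmem123 (20 points) and Kif5a (13.6 points). Next came Gm17324, Prr22, Atp6v0e and Cpz, with 91.3 to 94.6% kept. An island was in the window of Kif5a, Dnajc24, Nup155, Tmem123, Gm17324 and Cpz among these 10.

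**Figure D4:**
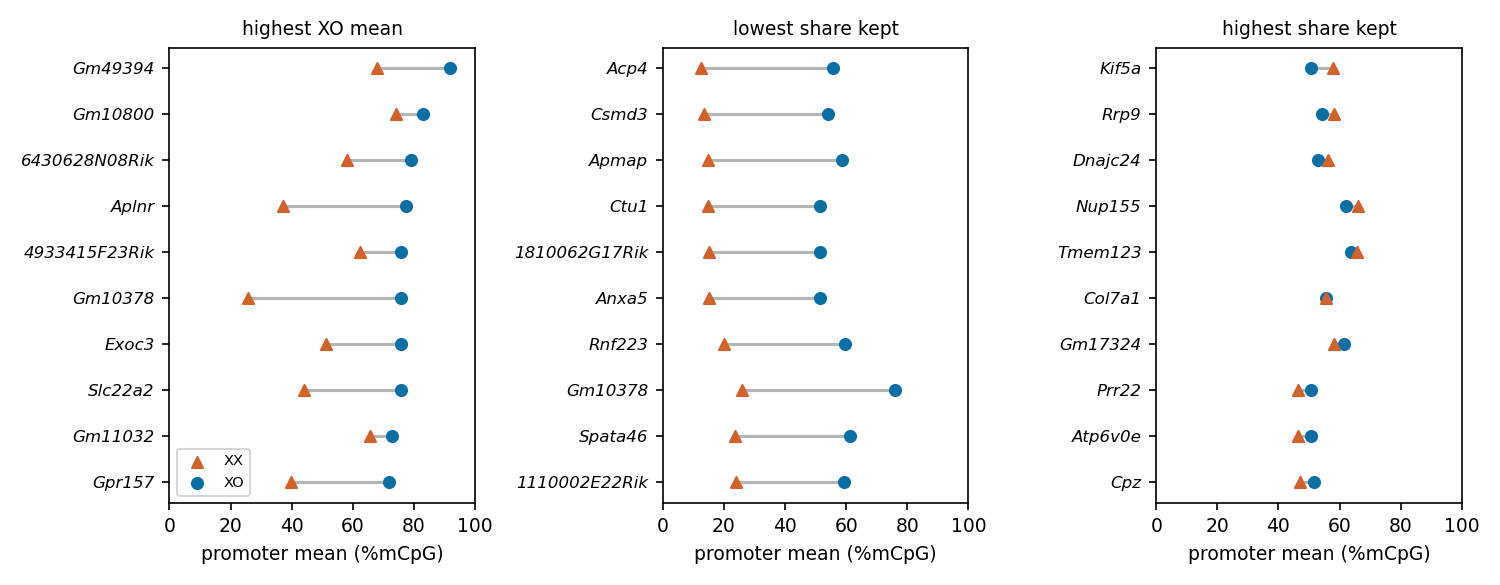
Promoter mean methylation (x axis, %mCpG) in XO (circles) and XX cells (triangles) for the 10 promoters with the highest XO mean, the 10 with the lowest and the 10 with the highest share kept in XX cells. Each point is the mean over the listed cytosines of 1 promoter in 1 library, and the grey line joins the libraries. Acp4 spans 55.6 to 12.6%, whereas the points of Col7a1 lie on top of each other.

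Of the promoters with the most listed cytosines, Slbp had 46, with 50.5% in XO and 27.2% in XX cells. Its strands were close, at 50.3% on the forward and 50.6% on the reverse strand in XO cells and 24.6% and 28.6% in XX cells. Gm5105 had 39 cytosines and 56.3% and 33.5%. Gtf3c2, a subunit of the polymerase III factor TFIIIC, and Gm29609 start 233 bases apart and share all 32 of their cytosines, which had 66.0% in XO and 57.8% in XX cells, with an XO mean of 73.7% on the forward and 58.4% on the reverse strand. Other promoter pairs with the same cytosines were Gml with Gml2 and Rag1 with B230118H07Rik. Of the 15 promoters with 20 or more listed cytosines, 5 had lost at least 20 points in XX cells. Their median share kept was 83.4%, above that of the whole set, and 8 of the 15 had an island in the window. More listed cytosines did not bring the strands closer, and the median XO gap was 11.9 points in 14 of these 15 with 5 or more cytosines on each strand and 9.53 points in 39 promoters with fewer than 15.

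Agreement between strands was the only internal measure of precision. In 75 promoters each strand had at least 5 listed cytosines, on the whole at different CpGs. The XO means of the strands differed by a median of 11.99 points (interquartile range 5.78 to 18.9), compared with 4.44 points over all tested promoters, whose levels are far lower. The gap was under 10 points in 33 of the 75 and at least 20 points in 17. In XX cells it had a median of 8.93 points. Both strands were at 50% or more in XO cells in 48 of the 75. XX cells were lower on both strands in 63 of the 75 and higher on both in 0, and they were at least 20 points lower on both in 31. Among the 11636 tested promoters with 5 or more cytosines on each strand, the same held for 36.6, 15.8 and 0.498%. The direction was therefore shared by the strands in most promoters, but the size was not. The XO values of both strands had made the choice, which favours a lower XX mean on each. Where a single strand made it, XX cells were lower on the other strand in 74 of 100 and 102 of 125 promoters (below). Across the 75 promoters, the share kept on the forward strand had little relation to that on the reverse strand (r = -0.010, rho = 0.103), and neither had the XO means of the strands (r = 0.041, rho = 0.039), in a set whose XO range the rule had narrowed. The order of single promoters by share kept therefore describes the listed cytosines and was not repeated from strand to strand.

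**Figure D5:**
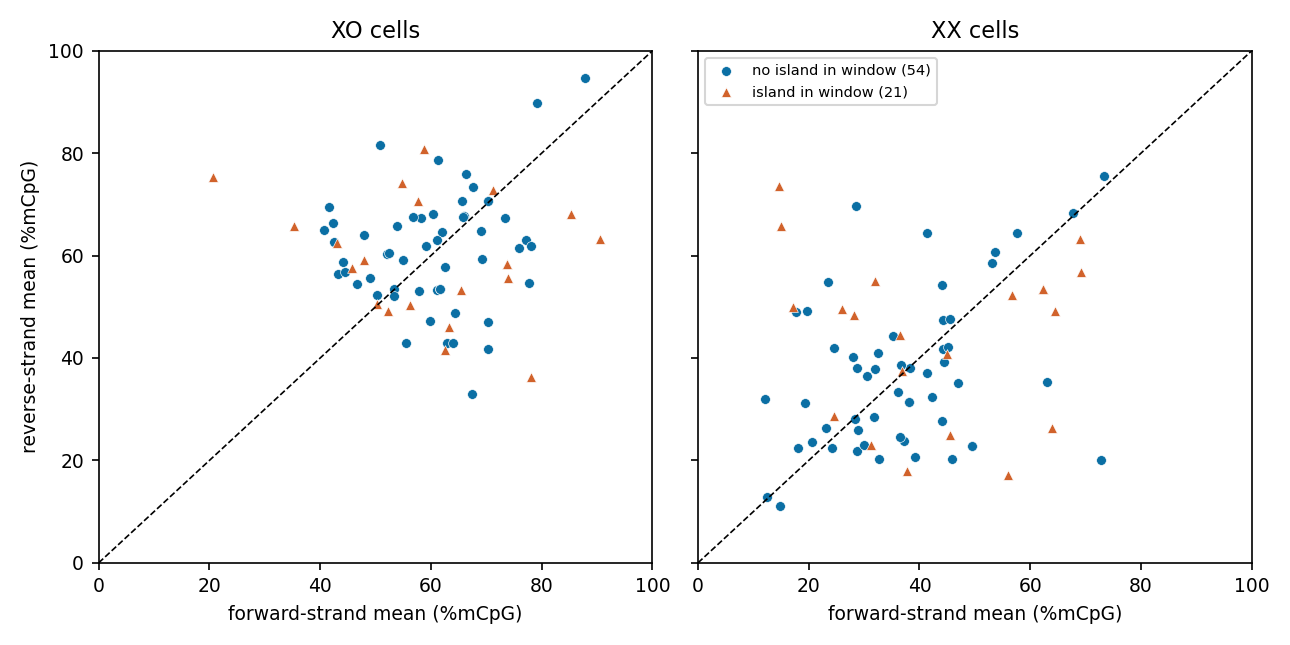
Mean methylation of reverse-strand cytosines (y axis, %mCpG) against forward-strand cytosines (x axis, %mCpG) in XO (left) and XX cells (right), for the 75 promoters with at least 5 listed cytosines on each strand. Triangles have a CpG island in the window and circles do not, and the dashed line marks equal strands. The points form a cloud around the line, and several triangles lie far from it.

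Strand gaps were wider at island promoters. The median XO gap was 17.2 points in 21 island promoters and 9.30 points in 54 without an island. XX cells were lower on both strands in 13 of the 21 and in 50 of the 54. The largest gap was that of Nemp2, a nuclear envelope protein, with 20.6% on the forward and 75.3% on the reverse strand in XO cells and 17.2% and 50% in XX cells. The clock transcription factor Arntl2 had 78% and 36.2% in XO cells. Csmd3, Popdc2 and Hnrnph1 followed, with gaps of 34.4, 30.8 and 30.5 points. In Csmd3 XX cells were low on both strands all the same, at 14.8% and 11.1%. The smallest gaps were those of Krt35 and Slbp, at 0.242 and 0.248 points, of Gml and Gml2, at 0.288, and of Arhgef10l, at 1.11.

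The strands could also be compared at the same CpG. The windows held 1735 distinct listed cytosines in 1511 CpGs, of which 224 were listed on both strands. There the XO values differed by a median of 16.2 points and the XX values by 12.97 points (r = 0.384 in XO and 0.498 in XX cells over the 224 CpGs, several of them neighbours in the same fragments). Where the mean XO level of the CpG was 50% or more, the median gap was 18.2 points for 134 CpGs of these promoters, 23.2 points for 531 CpGs of all tested promoters and 15.4 points for 38870 CpGs over all autosomes. XX cells were lower at both cytosines in 70.1% of the 224, against 9.95% of such CpGs in all tested promoters and 24.7% over all autosomes. Of all 1735 cytosines, XX cells were lower at 79.7% and higher at 17.9%. The same shares were 34.4% and 31.1% in all tested promoters, and 53.5% and 26.4% over all autosomes. The choice by high XO levels favours lower XX values at the 1735 cytosines. In XO cells 24.7% of these cytosines were at 80% or more and 6.63% at 20% or less, and in XX cells these shares were 8.30% and 24.6%.

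To read XX and XO cells on values that had not chosen the promoters, promoters were chosen on a single strand and read on the other. By their forward-strand XO mean 100 autosomal promoters reached 50%, of which 60 were in the set. They had a median of 58.5% on that strand but 48.0% on the reverse strand, where XX cells had 31.4%, kept a median of 69.8% and were lower in 74 of 100. By the reverse strand 125 promoters were chosen, 63 of them in the set. Their median fell from 58.3% to 43.2% on the forward strand, where XX cells had 28.9%, kept 67.6% and were lower in 102 of 125. High XO levels were thus partly lost on the strand that had not been used for the choice. The median difference, XX minus XO, was -13.2 points in the first case and -14.6 points in the second, smaller in size than the -21.1 points of the set, whereas the share kept was close to its 66.3%.

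Some promoters had other features that bear on their values. At least 50% of the listed cytosines lay in a 31-base sequence with an exact copy elsewhere in the reference in 5 promoters (4.07%, against 0.423% of all tested), namely Gm10378, Gm10800, Gm10801, Vmn2r69 and Gm6685. In Gml, Gml2 and the heat shock gene Hspa1b it was 6 of 13. Reads from such copies may not be told apart, and the values of these genes are uncertain. Without the 5 promoters the median share kept was 66.3%. Repeats held at least 50% of the listed cytosines in 4 promoters (3.25%, against 0.108%). The gene start lay inside another coding gene in 19 (15.4%, against 12.9%). In 11 genes another annotated start had 10 or more listed cytosines, and where there were several the one with the lowest XO mean was taken. That mean was under 20% in 6 of the 11, against 866 of 1752 genes over all tested promoters. Kcnip1, a potassium channel-interacting protein, had 70.1% over the window of its gene start and 6.22% at the other start, but its 11 cytosines lay 183 to 713 bases into the gene, and the only one within 250 bases of the start was at 9.09% in XO cells. The transcription factor Mecom had 63.2% over its window and 4.10% at the other start. The other starts of Celf2, Rrp9, Arhgef10l and Atp6v0e were at 6.51, 14.3, 0.43 and 13.9% in XO cells.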

How the data were processed

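RRBS libraries (NuGEN Ovation Methylseq) of sorted XX and XO Xmas mESCs were compared, 1 per karyotype. The authors deposited the percent methylation of 1782730 CpG cytosines in each library, with strands listed separately. Per the labels' processing notes, bcl2fastq, Bismark and mm10 were used, and versions, coverage minimum and filters are not given in the sources used here. Counts were not used, so depth is unknown and no interval was computed. There were 0 columns of other samples.

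Positions were placed on GRCm38, where 51 lay on no CpG, and assigned to 21938 coding genes of GENCODE M21. A promoter value is the mean over listed cytosines within 1 kb of the gene start. CpG islands were called by a running score (17 for a CpG, -1 for another base) on repeat-masked sequence, and stretches over 200 bp were kept if their GC content reached 50% and their observed to expected ratio passed 0.6, which gave 16179. Exact copies were searched with 31 bases around each cytosine on both strands. With 1 library per group no test was made, and groups of promoters are given by counts, medians and quartiles beside all tested promoters. Promoters were named when they were among the 10 with the highest XO mean or the highest or lowest share kept, the 5 with the most cytosines, the 5 with the largest or smallest strand gap, the 3 on either side of the threshold, or in a curated list. Members of the lists made by gene name patterns, genes with another tested start, promoters that share cytosines and those with exact copies were named after their values were seen. The promoters and gene lists were chosen with earlier results of these data known. Alternatives were 5 or 20 cytosines per promoter, XO thresholds of 40 or 60%, windows of 500 bp or 2 kb, repeats left out, strands averaged, values at 0 or 100 in both libraries left out, medians over cytosines, choice on a single strand and shared cytosines counted once. The island split and the promoters without exact copies were added after the data were seen. The code was tested on simulated data. Tools were Python 3.11.15 with matplotlib 3.10.9 for plots and numba 0.67.0, numpy 2.4.6 and pandas 2.3.3 for values.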

Additional observations from a re-analysis of the deposited data

How the results depend on the processing

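The median difference was below 0 under all alternatives run, and the median share kept by island promoters (69.8 to 87.5%) was above that of promoters without an island (55.7 to 68.5%) under each of them. The size of this split varied. These medians were closest in windows of 2 kb, at 70.8 and 61.7%, and furthest apart with a minimum of 20 cytosines, at 85.7 and 59.5% (8 and 7 promoters). With medians over cytosines they were 69.8 and 55.7%. The number of methylated promoters, with those at least 20 points lower in XX cells after it, moved from 123 and 67 to 389 and 236 with a minimum of 5 listed cytosines, 15 and 5 with a minimum of 20, 264 and 109 at an XO mean of 40% or more, 58 and 36 at 60% or more, and 223 and 129 in windows of 2 kb. The minimum of 20 cytosines also moved the median difference to -8.97 points and the median share kept to 83.4%. The cause was not tested, beyond the smaller and larger sets that these rules make. With medians over cytosines 101 promoters were at least 20 points lower, and 41 were so when the forward strand made the choice and the reverse strand was read. The set itself depended on the rule, and 72 of the 123 promoters were also chosen with windows of 500 bp and 88 with strands averaged. Of the differences at single named promoters under other windows, strand averages, medians or filters, 243 stayed within the spread between strands and 13 moved. Among the latter, 5 changed sign, to 5.86 points at Arntl2, 9.06 at Atp6v0e and -8.23 at Nup155 within 500 bp, and to 11.8 at Gm11032 and 15.2 at Gm17324 with medians, and Tmem123 rose to 20 with medians. Smaller turns of sign, within the spread, were seen at Prr22 (0.058) and Rrp9 (-2.19) within 500 bp and at Dnajc24 (-3.81) and Nup155 (-1.79) with medians. A value was said to move when it changed by more than 10.7 points or 15.8% kept, the median differences between strands, or 1.5 times for a count. No paired analysis was possible because there was 1 library per karyotype with no replicate numbers. The median difference was -13.2 and -14.6 points when the other strand was read. Unknown depth limits single promoters most, and 1 library per karyotype gives no measure of variation between cultures.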
